A study of Homo sapiens with 4 samples.

Results

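Open chromatin was examined at 35 genes that carry glucose into the cell, break it down to pyruvate and lactate, and pass pyruvate into mitochondria. In the authors' deposited table, 163 of 125986 listed regions overlapped the RefSeq GRCh38 span of one of these genes extended by 10 kb on both sides, with 2 to 14 regions per gene and at least 1 region for each of the 35. ATAC-seq uses the transposase Tn5 to insert adapters into exposed DNA, so that reads pile up where chromatin is open, and it was applied here to A375, an established line of human melanoma cells. One group of 2 libraries came from A375 cells given 1 mM octanoate, a medium-chain fatty acid, for 48 h, and the other group of 2 from A375 cells given isopropanol, the vehicle, over the same period. The labels name no engineered allele or other agent in either group, do not say whether the 2 libraries of a group came from separate cultures, and cover this 1 cell line, so p-values measure only the spread between these libraries, which may be technical.

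Glycolysis turns glucose into pyruvate in the cytosol, and its enzymes and transporters are among the classic targets of hypoxia-inducible factor (HIF) and MYC. Pyruvate is then reduced to lactate and exported, or it enters the mitochondrion through the pyruvate carrier, where pyruvate dehydrogenase makes acetyl-CoA from it and pyruvate carboxylase makes oxaloacetate. Fatty acid oxidation also yields acetyl-CoA, and pyruvate dehydrogenase kinases switch the dehydrogenase off when fat is burned, so both fuels meet at this step. Melanoma cells, like many tumour cells, are known for high lactate production.

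The promoters of 4 members are shown because the results below turn on the open regions around them. MPC1 had the highest fold change among the members' tested regions at a start in the RefSeq promoter table. A tested region at the upstream end of the GPI span, which is not a start in that table, had a higher log2 fold change (0.64 against 0.46). PGK1, LDHA and ENO1 are textbook HIF targets. Each stretch is the 250 bases before the outermost RefSeq start (GRCh38.p14), 5′ to 3′ on the gene's strand, with ACGTG and GCGTG, the core letters of HIF sites, in capitals on either strand. They lie at chr6:166382941-166383190 (minus strand, MPC1), chrX:78103998-78104247 (plus, PGK1), chr11:18394313-18394562 (plus, LDHA) and chr1:8878687-8878936 (minus, ENO1), and each lay wholly within a listed region. The MPC1 and ENO1 stretches also overlap the RNA genes MPC1-DT and ENO1-AS1.
MPC1: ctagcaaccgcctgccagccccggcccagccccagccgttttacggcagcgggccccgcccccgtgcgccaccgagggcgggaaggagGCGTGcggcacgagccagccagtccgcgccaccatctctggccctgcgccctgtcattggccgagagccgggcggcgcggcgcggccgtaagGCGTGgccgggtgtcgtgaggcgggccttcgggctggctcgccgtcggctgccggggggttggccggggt
PGK1: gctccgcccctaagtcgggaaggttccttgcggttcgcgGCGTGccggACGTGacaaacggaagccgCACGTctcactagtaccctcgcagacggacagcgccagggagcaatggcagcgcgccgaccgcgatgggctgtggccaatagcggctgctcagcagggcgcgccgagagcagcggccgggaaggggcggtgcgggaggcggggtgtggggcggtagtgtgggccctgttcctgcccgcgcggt
LDHA: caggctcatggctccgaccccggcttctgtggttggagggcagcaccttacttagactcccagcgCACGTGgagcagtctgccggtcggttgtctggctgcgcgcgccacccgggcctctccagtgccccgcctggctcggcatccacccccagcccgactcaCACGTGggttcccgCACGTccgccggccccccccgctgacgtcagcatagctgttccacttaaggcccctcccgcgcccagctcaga
ENO1: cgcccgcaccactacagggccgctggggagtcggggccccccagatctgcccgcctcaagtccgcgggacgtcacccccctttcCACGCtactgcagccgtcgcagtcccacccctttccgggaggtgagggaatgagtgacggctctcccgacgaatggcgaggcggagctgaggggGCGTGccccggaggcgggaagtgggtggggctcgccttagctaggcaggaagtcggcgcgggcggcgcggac
The LDHA stretch held 2 copies of CACGTG, the E-box, which reads the same on both strands and so holds ACGTG on each. Over the 31 members with a start in the RefSeq promoter table, 74.2% (23) had ACGTG or GCGTG on either strand in the 300 bases from 250 before to 50 after the outermost start in that table, against 56.0% of 15843 protein-coding genes. For GPI, PFKFB4, PGAM1 and SLC16A3 that start lies more than 1 kb inside the RefSeq gene span, and the upstream end of the span was not searched. CACGTG was present in 4 of the 31 (12.9%, against 8.82%) and the GC box GGGCGG in 22 (71.0%, against 58.3%). The AP-1 letters TGACTCA were present in 1, ENO2 (3.23%, against 3.62%). The members' windows also had more G and C, with a median of 69.7% against 62.7%, and base composition was not matched in these shares. SLC2A3, PFKFB2, SLC16A1 and PDP1 had no entry in this table.

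No region of these genes passed the threshold. Of the 163 regions, 30 reached the mean of 63.8 normalized reads below which the authors gave no adjusted p, and 0 of these 30 had an adjusted p under 0.05 per the authors' deposited table (DESeq2, Benjamini-Hochberg), where 1.02% of 11185 tested regions did. At an unadjusted p under 0.05, 3 of the 30 were higher after octanoate per the authors' deposited table, against 14.8% of all tested regions, and 0 were lower, against 0.107%. The other 133 regions lay below that mean and are given as values only. Over the 30, the log2 fold change (octanoate over vehicle, with SE its standard error) per the authors' deposited table had a median of 0.21, 24 values lay above 0 (80.0%, against 85.7% of all tested nuclear regions), and the range was -0.089 to 0.64. Over all tested nuclear regions the median was 0.19.

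The table holds no value for a single library, so levels per library and overlap between groups cannot be given, and errors are the authors' standard errors. The standard errors of the 30 tested members ran from 0.13 to 0.26 with a median of 0.21 per the authors' deposited table. At that median, a log2 fold change of 0.40 (1.32-fold) was needed for an unadjusted p of 0.05 and 0.71 (1.64-fold) for a call. At the lowest and highest standard errors of these members a call needed 0.46 and 0.90. The 95% interval, computed from each deposited fold change and standard error, lay within a doubling or halving in 29 of the 30 and within 1.5-fold either way in 14.

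Before the values by role, the label of the cells was set against marker genes. All 7 melanocytic markers had a listed region in or within 1 kb of their span, the strongest at each having a mean of 11.1 (TYR) to 168 (MITF) normalized reads per the authors' deposited table. No region lay within 1 kb of a start of TYR or MLANA, which encode a pigment enzyme and a melanosome protein. All 3 markers of undifferentiated melanoma had one, at 28.4 (NGFR) to 118 (EGFR). Regions were also listed for the leukocyte markers PTPRC (93.3) and CD3E (70.1). As at TYR and MLANA, no region lay within 1 kb of a start of PTPRC. CD3E has no start in the promoter table, so its start was not checked. Regions were listed for 3 of 3 epithelial (10.8 to 77.5), 2 of 2 endothelial (26.4 to 49.4) and 1 of 2 hepatocyte markers (5.08). None was listed for ALB, the other hepatocyte marker. Open chromatin at a gene is not its expression, and the part of other cells in any value was not tested.

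**Figure D1:**
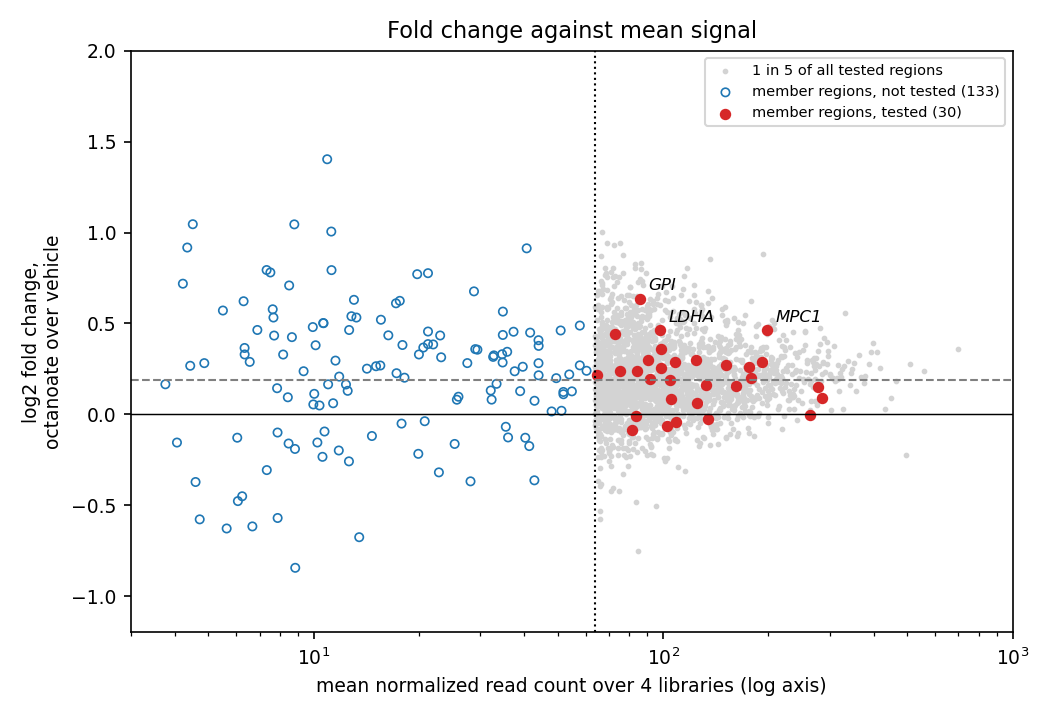
Log2 fold change (octanoate over vehicle) against the mean normalized read count (log axis). Grey points are 1 in 5 of all tested regions, filled points the 30 tested member regions and open points the 133 that were not tested. The dotted line is the lowest tested mean (63.8) and the dashed line the median of the tested regions (0.19). The 3 named points are the members with an unadjusted p under 0.05, and they lie inside the grey cloud.

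Promoter regions came first. A start region is one within 1 kb of a start of its gene in the RefSeq promoter table. Of the 31 genes with such a start 29 had one. The tested GPI region at the upstream end of its span (log2 fold change 0.64) is therefore not a start region here. The strongest start region of each gene had a log2 fold change above 0 in 25 of the 29 genes per the authors' deposited table, with a median of 0.19 and a range of -0.089 to 0.77. Over 12033 start regions of protein-coding genes 75.5% lay above 0 and the median was 0.14. These were not picked by strength. Without that pick, the 47 member regions at any protein-coding start had 78.7% above 0 and a median of 0.16. Among tested regions only, the medians were 0.19 (19 members) and 0.16 (5698 start regions), and the shares above 0 were 84.2% and 85.7%. No test of this difference was made, since regions are not replicates. The members' strongest start regions had a median of 57.7 normalized reads per kb of region. The 47 unpicked member regions had 53.6, against 49.6 for all start regions. The strongest start regions ranged from 16.6 at PFKL, a subunit of phosphofructokinase, to 172 at BPGM, which makes 2,3-bisphosphoglycerate.

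**Figure D2:**
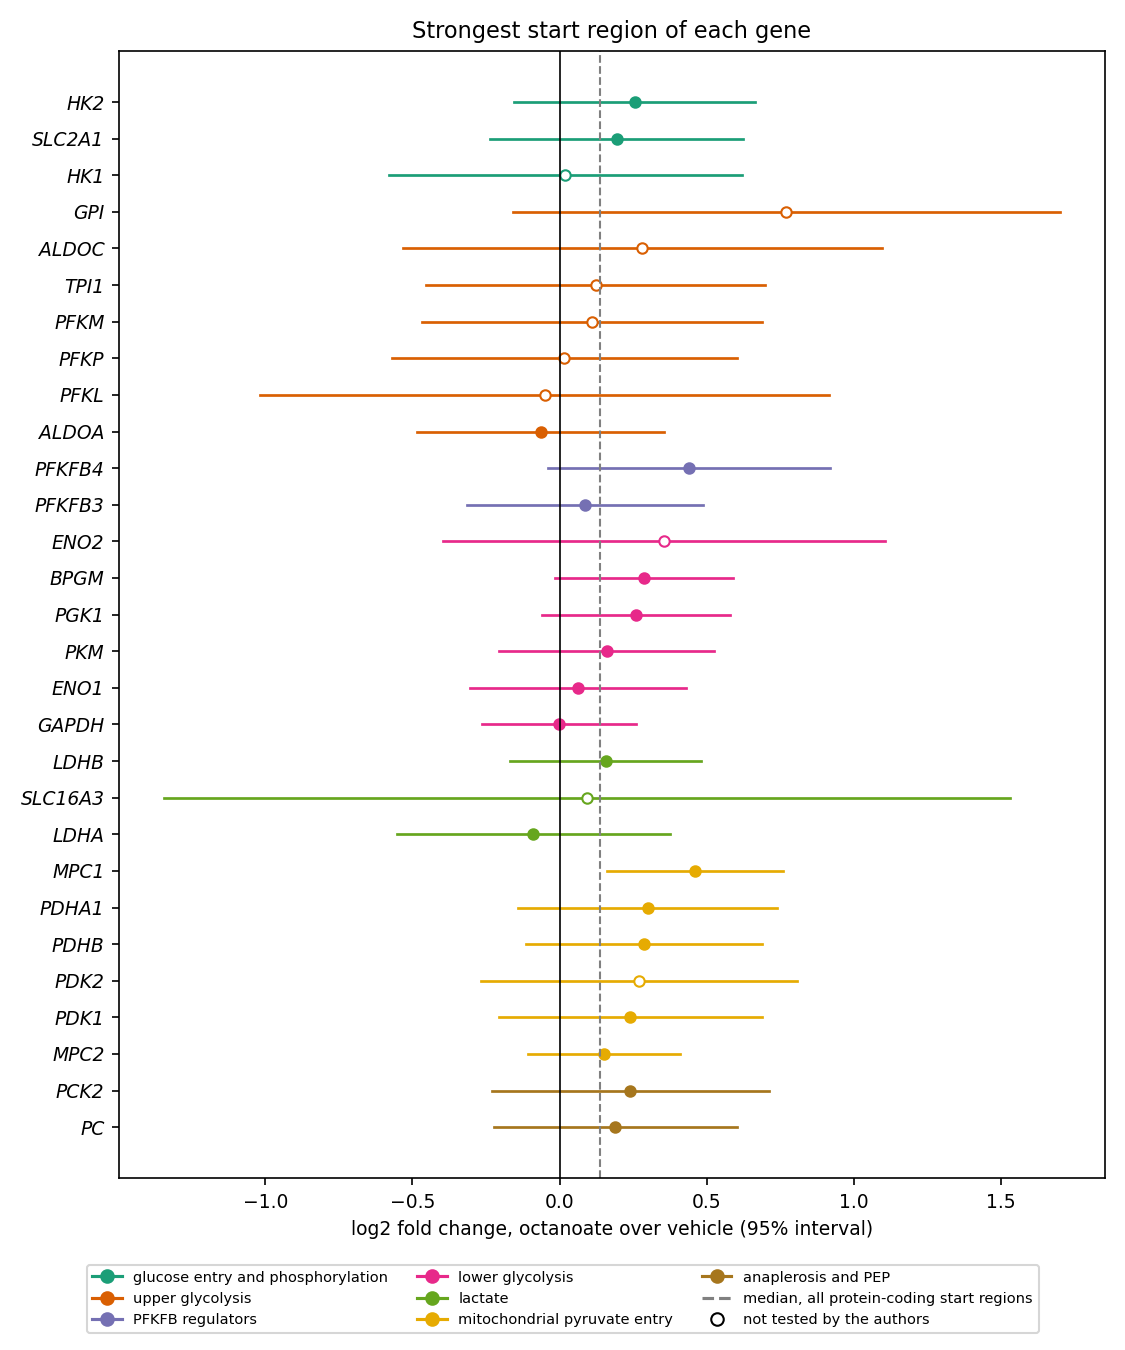
Log2 fold change (octanoate over vehicle) of the strongest start region of 29 genes, ordered by role, with 95% intervals from the authors' standard errors. Filled points were tested by the authors and open points were not. The MPC1 interval, 0.16 to 0.76, is the 1 interval among the 29 that lies wholly above 0, and the dashed line is the median over all protein-coding start regions (0.14).

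Glucose enters through the transporters SLC2A1 and SLC2A3 and is trapped by the hexokinases HK1 and HK2, with HKDC1 a related protein. These 5 genes had 32 regions, 23 of them above 0, and the median was 0.24 per the authors' deposited table. The SLC2A1 start (chromosome 1, 42957975 to 42959617) had a mean of 91.7 normalized reads and a log2 fold change of 0.19 (SE 0.22, adjusted p 0.713) per the authors' deposited table. For the HK2 start (chromosome 2, 74833526 to 74835460) the authors' deposited table gave 0.25 (SE 0.21, adjusted p 0.594) at a mean of 98.6. SLC2A1 was among the genes with most regions, and 9 of its 10 lay above 0, from -0.37 to 0.62 with a median of 0.29 per the authors' deposited table. SLC2A3 had no tested region, and its 4 values ran from -0.20 to 0.53 per the authors' deposited table.

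HK1 and HKDC1 lie next to each other on chromosome 10, and neither had a tested region. HK1 has 7 RefSeq starts, and its 1 start region (69318338 to 69319615) overlapped the start at 69319064, far inside the gene span, while no region was listed within 1 kb of the outermost start at 69270000. That region had a mean of 51.2 and a log2 fold change of 0.019 (SE 0.31) per the authors' deposited table. HKDC1 had no start region and the lowest gene median among members with at least 5 regions, at -0.22, with 4 of its 5 regions below 0 per the authors' deposited table. Its 5 regions had means of 7.88 to 22.8 normalized reads, and the strongest had a log2 fold change of -0.32 with a standard error of 0.44 per the authors' deposited table, so these values do not stand out from 0 beyond their error.

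Upper glycolysis runs from glucose-6-phosphate to the triose phosphates: GPI is the isomerase, PFKM, PFKL and PFKP are phosphofructokinase subunits, ALDOA and ALDOC are aldolases, and TPI1 interconverts the trioses. Of the 22 regions of these 7 genes, 18 lay above 0 and the median was 0.16 per the authors' deposited table. Relative to the median of all nuclear regions, this role was at -0.064. GPI had the highest value of all tested members: a region at the upstream end of its span (chromosome 19, 34358883 to 34359868) had a mean of 86.1 and a log2 fold change of 0.64 (SE 0.23, p 0.00481, adjusted p 0.121) per the authors' deposited table. Taking the mean as the average of both groups, that is about 67.4 normalized reads in vehicle and 105 in octanoate. The weaker region at the GPI start in the promoter table (34364780 to 34365334, mean 19.8, not tested) had 0.77 with a standard error of 0.47 per the authors' deposited table. The GPI upstream region was the 1 member of the 30 with an unadjusted p under 0.05 after the tested median was subtracted (0.0463), where 3.16% of tested regions were higher and 1.01% lower. On the adjusted p after that subtraction, 0.0536% of tested regions and 0 of the 30 members passed 0.05.

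At the ALDOA start (chromosome 16, 30063946 to 30066075) the log2 fold change was -0.064 (SE 0.21, adjusted p 0.919) per the authors' deposited table, among the 5 lowest tested members. The start regions of PFKM (0.11), PFKP (0.016), PFKL (-0.051), TPI1 (0.12) and ALDOC (0.28) were not tested and had standard errors of 0.29 to 0.49 per the authors' deposited table. PFKP nonetheless had the second highest gene median among members with at least 5 regions, 0.38 over 6 regions per the authors' deposited table, from its regions away from the start. The one tested region listed for TPI1 (6871477 to 6873971 on chromosome 12, 0.30, adjusted p 0.484 per the authors' deposited table) lay at the start of the neighbouring gene SPSB2.

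The PFKFB enzymes make and break fructose-2,6-bisphosphate, the activator of phosphofructokinase, and PFKFB3 and PFKFB4 are known HIF targets. PFKFB4 had the highest gene median among members with at least 5 regions, 0.43, and 6 of its 7 regions lay above 0 per the authors' deposited table. Its start (chromosome 3, 48556591 to 48557557, mean 72.8) had a log2 fold change of 0.44 (SE 0.24, p 0.0711, adjusted p 0.382) per the authors' deposited table. PFKFB3 had more regions than any other member, 14, with a median of 0.20 and a range of -0.68 to 0.91 per the authors' deposited table. Both of its RefSeq starts lay in open chromatin, with nearly equal signal per length: 35.8 normalized reads per kb at the outermost start (6144549 to 6145674 on chromosome 10) and 33.7 at the inner one (6201554 to 6204675). Their log2 fold changes were -0.13 (SE 0.33, not tested) and 0.086 (SE 0.21, adjusted p 0.878) per the authors' deposited table. At PFKFB2 the strongest regions (207052712 to 207053661 and 207049904 to 207051824 on chromosome 1) also overlapped YOD1, and their values of -0.024 and -0.011 per the authors' deposited table were among the 5 lowest tested members.

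**Figure D3:**
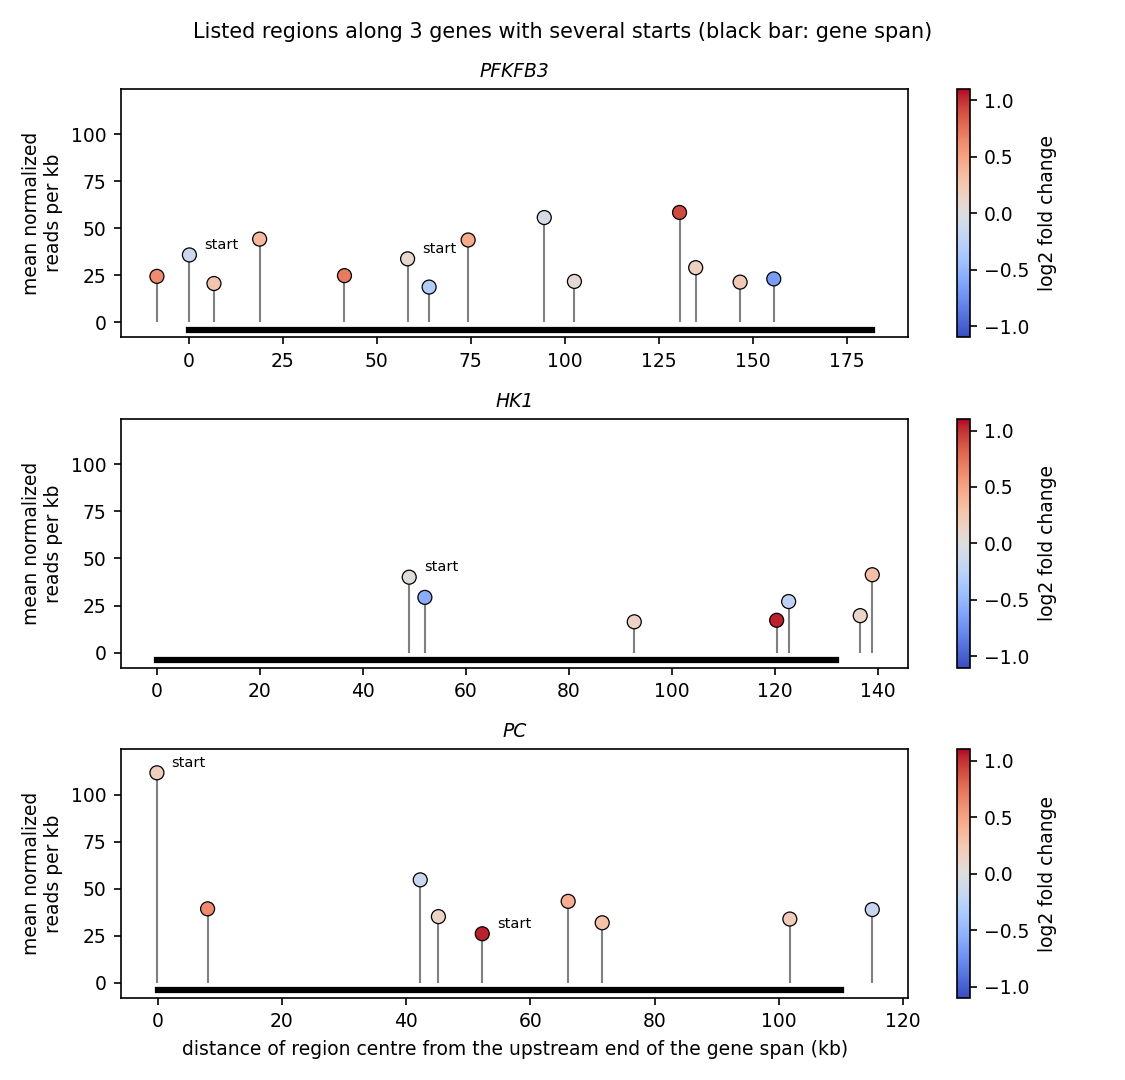
Mean normalized reads per kb of each listed region (height) along PFKFB3, HK1 and PC, by distance in kb of the region's centre from the upstream end of the gene span, with colour giving the log2 fold change (octanoate over vehicle). Regions at a RefSeq start are marked. PFKFB3 has 2 start regions of similar height (35.8 and 33.7), HK1 has its 1 start region far inside the span, and PC is highest at its outermost start (112).

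Lower glycolysis yields ATP and pyruvate through GAPDH, PGK1, PGAM1, ENO1, ENO2 and PKM, with BPGM on a side branch. Of 29 regions 23 lay above 0, as did 5 of the 7 tested, and the median was 0.26 per the authors' deposited table. The GAPDH start (chromosome 12, 6532139 to 6535439) had a mean of 263, a log2 fold change of -0.0027 and a standard error of 0.13 per the authors' deposited table (adjusted p 0.995). Its 95% interval, -0.26 to 0.26, spans 0.832-fold to 1.20-fold, one of the narrowest among the members. A second GAPDH region at the downstream end (6537907 to 6540880), which also overlaps IFFO1, had 0.36 (SE 0.21, adjusted p 0.420) per the authors' deposited table. The 2 regions thus differ in value at 1 gene, but their intervals overlap.

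BPGM, whose product lowers the oxygen affinity of haemoglobin in red cells, had the strongest start region per kb among members (chromosome 7, 134646384 to 134647499), and its log2 fold change was 0.29 (SE 0.15, p 0.0625, adjusted p 0.364) per the authors' deposited table. PGK1 makes the first ATP of the pathway, and its start (chromosome X, 78103629 to 78105232, mean 176) had 0.26 (SE 0.16, adjusted p 0.454) per the authors' deposited table. A further tested region counted with PGK1 (78139008 to 78140819) lay at the start of TAF9B and had -0.044 (adjusted p 0.940) per the authors' deposited table. The starts of PKM (0.16, adjusted p 0.722) and ENO1 (0.063, adjusted p 0.906), encoding pyruvate kinase and enolase, were nearer 0 per the authors' deposited table. ENO2 (start 0.36, standard error 0.38) and PGAM1 (0.24, standard error 0.28, at a region over the upstream end of its span, 1.18 kb from the start in the promoter table) were not tested, and these values too are from the authors' deposited table.

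Over all listed regions, tested or not, the lactate genes had the lowest median of the 7 roles. Of their 18 regions only 5 were tested, with 4 of these above 0, so the rank rests largely on untested regions. LDHA and LDHB encode the subunits of lactate dehydrogenase, and SLC16A1 and SLC16A3 export lactate. Over their 18 regions the median log2 fold change was 0.11 per the authors' deposited table, with 11 above 0, and relative to all nuclear regions it was -0.12. LDHA had 3 tested regions that differ in value. The region at its inner start (chromosome 11, 18395710 to 18396643) had -0.089 (SE 0.24, adjusted p 0.892), the lowest of the 30 tested members, and the region at its outermost start, which holds the E-boxes shown above, had 0.22 (18394070 to 18394897, standard error 0.26, adjusted p 0.730), both per the authors' deposited table. The third, 9.84 kb upstream of the outermost start (18383291 to 18384725), had 0.46 (SE 0.21, p 0.0283, adjusted p 0.266) per the authors' deposited table. In normalized reads, the inner start was at about 84.1 in vehicle and 79.1 in octanoate, and the upstream region at about 82.2 and 113. Their 95% intervals, -0.55 to 0.38 and 0.049 to 0.88, overlap.

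The LDHB start (21656852 to 21658421 on chromosome 12) had a log2 fold change of 0.16 (SE 0.17, adjusted p 0.688) per the authors' deposited table. SLC16A1 had the second lowest gene median among members with at least 5 regions, -0.16, with 3 of its 5 regions below 0 per the authors' deposited table. Its strongest region (chromosome 1, 112955233 to 112957886, mean 179), however, had 0.20 (SE 0.16, adjusted p 0.592) per the authors' deposited table, so the negative median came from weak, untested regions. SLC16A3, a HIF target near the end of chromosome 17, had no tested region. Its region at a start in the promoter table had a mean of 8.44 normalized reads (log2 fold change 0.094, standard error 0.73) per the authors' deposited table. A stronger region at the upstream end of its span (82216732 to 82218042) had a mean of 39.0 and a value of 0.13 (SE 0.34) per the authors' deposited table.

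Over all listed regions, tested or not, the genes of mitochondrial pyruvate entry had the highest median of the roles. Here too no region was called. Of their 22 regions 6 were tested, and 8 of the 22 belong to PDK1, with 1 of those tested. MPC1 and MPC2 form the pyruvate carrier, PDHA1 and PDHB are subunits of pyruvate dehydrogenase, the kinases PDK1 and PDK2 inhibit that enzyme and the phosphatase PDP1 reactivates it. Over 22 regions the median log2 fold change was 0.36 per the authors' deposited table, 0.13 above the median of all nuclear regions, and 20 values including all 6 tested ones lay above 0. The MPC1 start (chromosome 6, 166381703 to 166384104) came nearest to the threshold of all members: mean 199, log2 fold change 0.46, standard error 0.15, p 0.00247 and adjusted p 0.0932 per the authors' deposited table, place 295 of 11185 by p. That is about 167 normalized reads in vehicle and 230 in octanoate, or 1.38-fold with a 95% interval of 1.12 to 1.69. At an adjusted p under 0.1 it was the 1 member that passed, where 2.96% of tested regions were higher. MPC1 lies within 5 Mb of the outermost region listed on its chromosome, and the 1040 tested regions so placed had a median of 0.30 per the authors' deposited table. After the tested median was subtracted, the MPC1 start had a log2 fold change of 0.27 and an unadjusted p of 0.0716.

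Its partner MPC2 had the most reads of any member start (chromosome 1, 167935024 to 167937797, mean 278, shared with the start of DCAF6) and a log2 fold change of 0.15 (SE 0.13, adjusted p 0.615) per the authors' deposited table. Relative to the tested median the MPC2 start was at -0.035. The MPC1 and MPC2 intervals (0.16 to 0.76 and -0.11 to 0.41) overlap. The starts of PDHA1 (0.30, adjusted p 0.548), PDHB (0.29, adjusted p 0.525) and PDK1 (0.24, adjusted p 0.647) lay close together per the authors' deposited table, each with a standard error of 0.20 to 0.23. PDK2 had 0.27 (SE 0.27, not tested), and the strong region at PDP1 (chromosome 8, 93916009 to 93918660, mean 285) had 0.089 (SE 0.14, adjusted p 0.801) per the authors' deposited table. PDK1 had the third highest gene median among members with at least 5 regions, 0.36, and all 8 of its regions lay above 0 (0.23 to 1.40) per the authors' deposited table.

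Pyruvate carboxylase (PC) refills the citric acid cycle, and PCK2 makes phosphoenolpyruvate from oxaloacetate in mitochondria. The PC start (chromosome 11, 66958014 to 66958950) had a log2 fold change of 0.19 (SE 0.21, adjusted p 0.710) per the authors' deposited table and 112 normalized reads per kb. A weak region at an inner PC start (66905960 to 66906297) had 26.0 reads per kb and a value of 1.04 with a standard error of 0.74 per the authors' deposited table. The 9 PC regions had a median of 0.21. The PCK2 start (chromosome 14, 24093834 to 24095928) lay also at a start of NRL and had 0.24 (adjusted p 0.671), and the stronger region at the starts of DCAF11 and NRL (24113733 to 24115442) had 0.27 (adjusted p 0.459), both per the authors' deposited table.

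**Figure D4:**
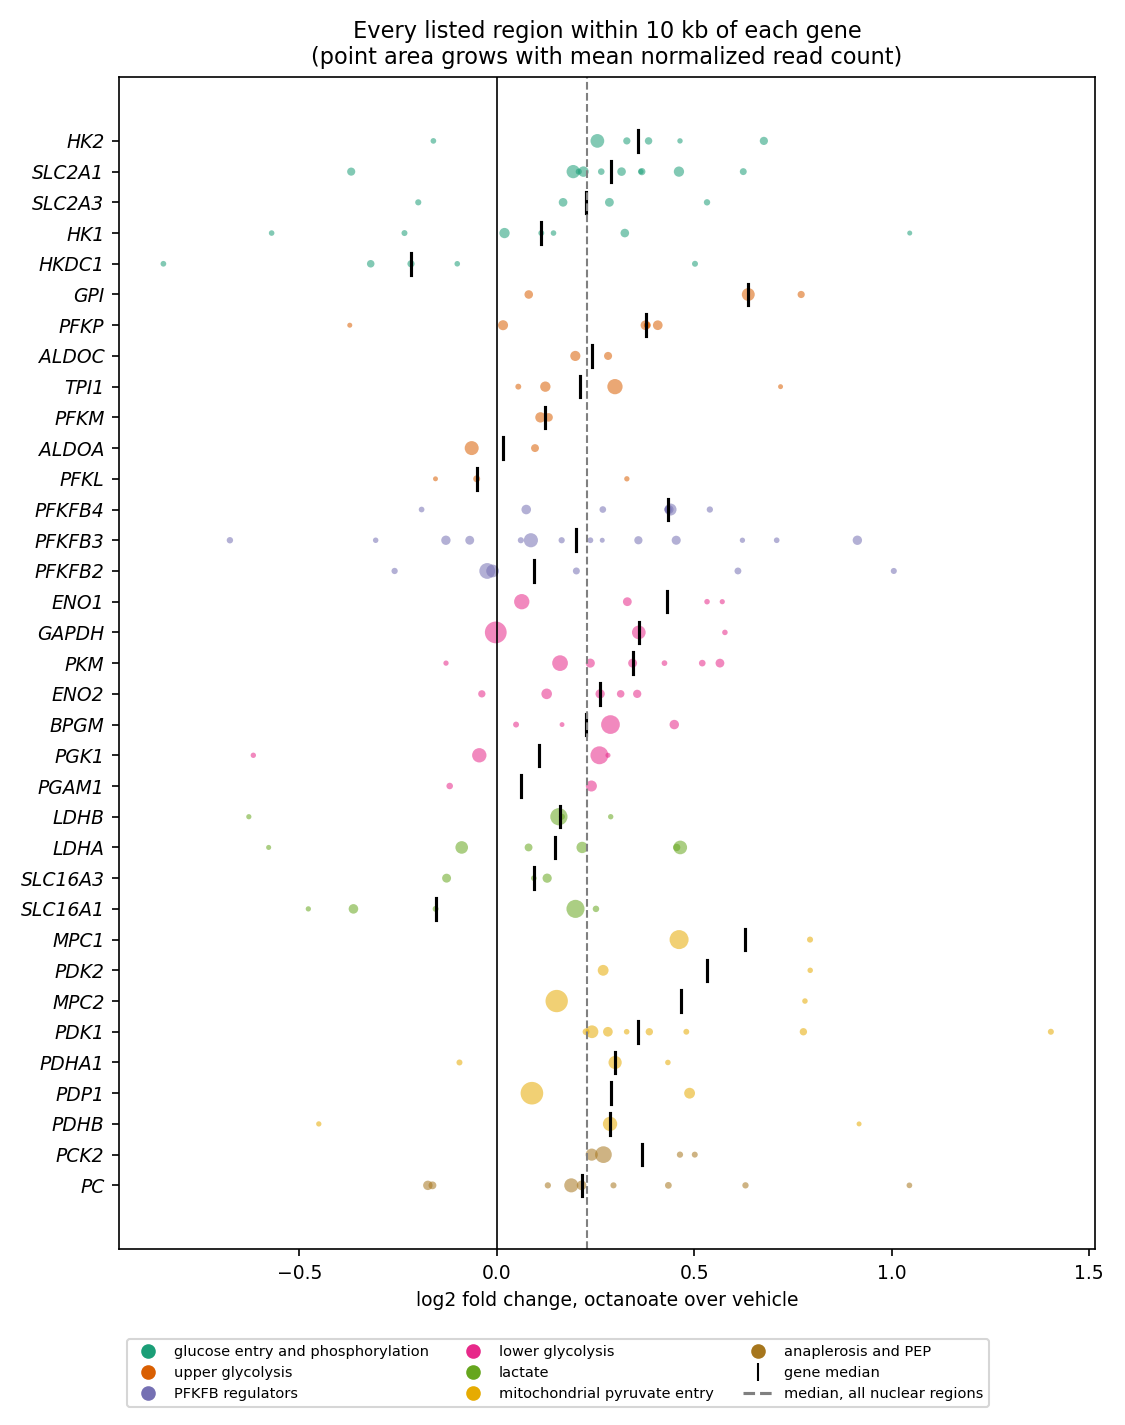
Log2 fold change (octanoate over vehicle) of all 163 regions, 1 row per gene, grouped by role. Point area grows with the mean normalized read count, black ticks are gene medians and the dashed line is the median of all nuclear regions (0.23). The 30 tested regions, which are the largest points, lie between -0.089 and 0.64, and the values farthest from 0 are small points.

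Across all 163 regions the median log2 fold change was 0.25 per the authors' deposited table, against 0.23 over 125985 nuclear regions, and 125 of the 163 (76.7%, against 72.1%) lay above 0, whereas among tested regions the members' share was the lower one. Regions over 1 kb from every protein-coding start in the promoter table had a median of 0.29 (116 members), against 0.25 over 113952 such regions. Members at a protein-coding start in that table had 0.16 (47 regions), against 0.14. Starts absent from that table were not counted, so the 116 include the strong region at PDP1 and the one at the upstream end of the GPI span. The 113952 share this limit. The members thus differ little from the table in their medians, and no test of them as a set was made. Of the 163, 24 overlapped another protein-coding gene and not the span of the member they were counted with, and 19 lay within 1 kb of another gene's start, so position alone does not settle which gene such a region serves. The 14 members near a chromosome end (at PFKP, PFKL, SLC16A3 and MPC1) had a median of 0.23 per the authors' deposited table, against 0.33 over 10791 regions so placed.

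A list of 40 further genes of the pathway and its control, other isoenzymes, the remaining pyruvate dehydrogenase parts, and the HIF and MLX factors, had 123 regions at 37 genes. Of these regions 3 also counted with LDHA. Their median log2 fold change was 0.17 per the authors' deposited table, and of 18 tested regions 0 passed the threshold of 0.05 on the adjusted p (DESeq2), against 1.02% of all tested regions. At an unadjusted p under 0.05, 2 of the 18 were higher (11.1%, against 14.8% of all tested regions). These were the start regions of TIGAR, which lowers fructose-2,6-bisphosphate (0.50, standard error 0.16, adjusted p 0.0728), and of EGLN1, the oxygen sensor that marks HIF for destruction (0.45, standard error 0.15, adjusted p 0.0921), per the authors' deposited table. The start regions of several others lay nearer 0 per the authors' deposited table: HIF1A 0.10, DLAT 0.086, DLD 0.095, PDHX 0.079, PDK3 0.13 and PDK4 0.16. Over the 18 tested further regions the median was 0.10, and 13 of them lay below the median of all tested regions (0.19), while 18 of the 30 tested members lay above it. No test of this difference was made.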

How the data were processed

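Per the labels, ATAC-seq libraries were made from A375 cells treated for 48 h with 1 mM octanoate or vehicle, 2 per group. The submitters' processing notes name hg38, Trim Galore, cutadapt, FastQC, Bowtie2, Picard, MACS2, featureCounts, DESeq2 and bedtools 2.29.1, without roles, so any Tn5 shift of reads is not given in the sources used here. The authors deposited 1 table with 0 columns per library: the mean normalized signal (read count), the log2 fold change and its standard error, the Wald score, the p-value and the adjusted p-value, per the file headers. Depth per library is unknown, and no counting intervals are given.

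The deposited adjusted p equalled Benjamini-Hochberg over 11185 regions, those reaching a mean of 63.8, and the other 114801 were treated as not tested. Starts in the table were taken as counted from 0 and printed from 1. Gene spans, names and starts came from RefSeq GRCh38.p14 (31 of 35 members matched a start); exons and introns were not used. Intervals are the log2 fold change with its standard error times the normal 95% quantile, and group levels assume that the deposited mean averages both groups. Scripts used Python 3.11.15, numpy 2.4.6, pandas 2.3.3, scipy 1.17.1 and matplotlib 3.10.9, and were tested on simulated data.

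The members and lists were chosen with earlier results of these data known. Named were the strongest start region per gene (or the strongest region of a gene with none), tested regions with an unadjusted p under 0.05, the 5 highest and 5 lowest tested, and, among genes with at least 5 regions, the 3 highest and 3 lowest medians, plus the 3 genes with most regions. One marker gene is not reported here. Alternatives covered the adjustment, threshold, centring, window and start distance.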

Additional observations from a re-analysis of the deposited data

How the results depend on the processing

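No call of a member or further region arose when Benjamini-Hochberg covered all nuclear regions, at an adjusted p under 0.01, after either centring, or with windows of 0 or 25 kb. The count of 0 became 1 of 30 (members) and 2 of 18 (further genes) at an adjusted p under 0.1, and 3 and 2 at an unadjusted p under 0.05. All of these were higher after octanoate. Over all tested regions, 2.96% were higher at the first threshold and 14.8% at the second. Relative to the median of all nuclear regions and to that of the tested regions, the medians were 0.022 and 0.064 (all members), -0.041 and 0.0018 (start regions), -0.059 and -0.016 (further genes), 0.20 and 0.25 (PFKFB4), 0.15 and 0.19 (PFKP), 0.13 and 0.17 (PDK1), -0.45 and -0.40 (HKDC1), -0.38 and -0.34 (SLC16A1), -0.13 and -0.091 (PFKFB2), -0.029 and 0.014 (PFKFB3), 0.061 and 0.10 (SLC2A1), and -0.015 and 0.028 (PC). With tested regions only they were 0.24 (PDK1), 0.20 (SLC16A1), -0.018 (PFKFB2) and 0.086 (PFKFB3), each resting on 1 or 2 regions. Among tested regions named by the rule, subtracting the tested median turned the sign at ENO1 (-0.12), LDHB (-0.030), MPC2 (-0.035), PFKFB3 (-0.10), PKM (-0.027) and PDP1 (-0.098). With the median of all regions these were -0.17, -0.072, -0.078, -0.14, -0.069 and -0.14, joined by PC (-0.041), SLC2A1 (-0.036) and SLC16A1 (-0.030), and by the region at the outermost LDHA start (-0.013). Among untested start regions, either subtraction turned PFKM, TPI1, PFKP, HK1 and SLC16A3 (-0.076, -0.064, -0.17, -0.17 and -0.093 with the tested median), and it also turned the further start regions of HIF1A, DLAT, DLD, PDHX, PDK3 and PDK4. Each turn follows from a subtracted median larger than the deposited value. No paired analysis was possible because single libraries have no values in the deposited table, so edgeR and fits without 1 replicate could not be run either.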

Other observations

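Among the 133 member regions that the authors did not test, 2 had an unadjusted p under 0.05 per the authors' deposited table (against 2.67% of all untested nuclear regions), and both were chosen here after their values were seen. A region inside PFKFB3 (chromosome 10, 6275056 to 6275752, mean 40.7) had a log2 fold change of 0.91 (SE 0.34, unadjusted p 0.00773) per the authors' deposited table. A region within the span of PDK1 (chromosome 2, 172643199 to 172643598, mean 10.9) had 1.40 (SE 0.66, unadjusted p 0.0342) per the authors' deposited table.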
